A study of Mus musculus with 6 samples.

Results

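The nuclear-encoded respiratory chain and ATP synthase genes were read out of an array comparison of retinae from newborn mice (postnatal day 0) lacking Meg2 and from wild-type mice. The set was defined by gene symbol, as the Nduf, Sdh, Uqcr, Cox and Atp5 subunit genes with Cyc1 and Cycs. This set was chosen with earlier results of these data known. It held 83 genes of the 19938 genes with a probe set assigned to a single symbol, namely 35 of complex I, 4 of complex II, 9 of complex III, 17 of complex IV, 17 of complex V and the cytochrome c gene Cycs. They were read by 109 transcript clusters, the probe sets that this array uses to read 1 transcript region each, and a gene with several clusters was represented by the one with the highest mean over the 6 arrays. Meg2 is a protein tyrosine phosphatase encoded by Ptpn9. Both groups had the C57BL/6NTac background, and the 2 groups of 3 animals differed, per the labels, in genotype only (Meg2 knockout or wild type). Neither the allele nor whether the deletion is constitutive is given in the labels used here. Each array held RNA of whole retina with both eyes of an animal combined, so fewer cells of a type and less RNA per cell cannot be told apart.

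The respiratory chain lies in the inner mitochondrial membrane, where complexes I and II pass electrons from NADH and succinate to ubiquinone, complex III passes them on to cytochrome c, and complex IV reduces oxygen. Complexes I, III and IV pump protons, and complex V (ATP synthase) uses the proton gradient to make ATP. Most subunits are encoded in the nucleus and imported, and the retina, whose photoreceptors hold many mitochondria once mature, is among the tissues with a high demand for oxygen; at birth it still consists largely of dividing progenitors and young neurons.

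The targeted gene was lower on every knockout array. Ptpn9 read 9.31, 9.58 and 9.28 on the log2 scale in the knockout and 10.05, 9.93 and 9.94 in the wild type, a knockout minus wild type difference of -0.58 (SE 0.087; limma, adjusted p = 0.437), and probes outside the deleted part would not test the deletion. Of 18 retinal marker genes 16 were measured, and all 16 lay at or above 8.51, the median signal of the tested clusters. Both replicate 2 arrays stood apart from what the labels give, 1 animal per array: Xist read 12.54 on each, as on the replicate 1 arrays, while the Y-linked gene Eif2s3y read 7.66 and 7.76, between 5.08 and 5.49 on the replicate 1 arrays and 10.03 and 9.39 on the replicate 3 arrays. The main counts below are therefore also given without replicate 2 of both groups. These sex-linked genes followed the replicate number in both groups, with Xist at 6.26 on knockout replicate 3 and 6.52 on wild-type replicate 3.

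No respiratory chain gene passed correction, and most differences were small and slightly below 0 in the knockout. At an adjusted p under 0.05 limma called 0 of the 83 genes, against 0 of all 23410 tested clusters (0.0%), and with the replicate number as a block it called 0 of 83 against 1 of 23410 (0.00427%). The lowest adjusted p of a member was 0.9995 without the block and 0.514 with it (limma). In 57 of the 83 genes (68.7%) the knockout mean lay below the wild-type mean, against 49.3% of all tested clusters and 46.1% of the 6357 clusters with a mean signal of 10 or more. The median difference was -0.022 on the log2 scale, against 0.0012 over all tested clusters. For 71 of the 83 genes the difference was smaller than 0.1 in size, for 10 it lay between 0.1 and 0.2, and only Atp5k and Ndufa4l2 exceeded 0.2. These 2 genes are 2.41% of the set, against 2.41% of all tested clusters and 1.02% of those with a mean signal of 10 or more.

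The intervals describe how far the array signal of each gene could have differed. Each was taken alone, with no allowance for the number of genes. The 95% interval of the difference lay within 0.2 of 0 for 43 genes, which is between 0.871 and 1.15 of the wild-type signal. It lay within 0.3 of 0 (0.812-fold to 1.23-fold) for 74 genes and within 0.5 (0.707-fold to 1.41-fold) for 82. Ndufa4l2, whose interval ran from -0.04 to 0.86, was the 1 gene not bounded in this way.

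**Figure D1:**
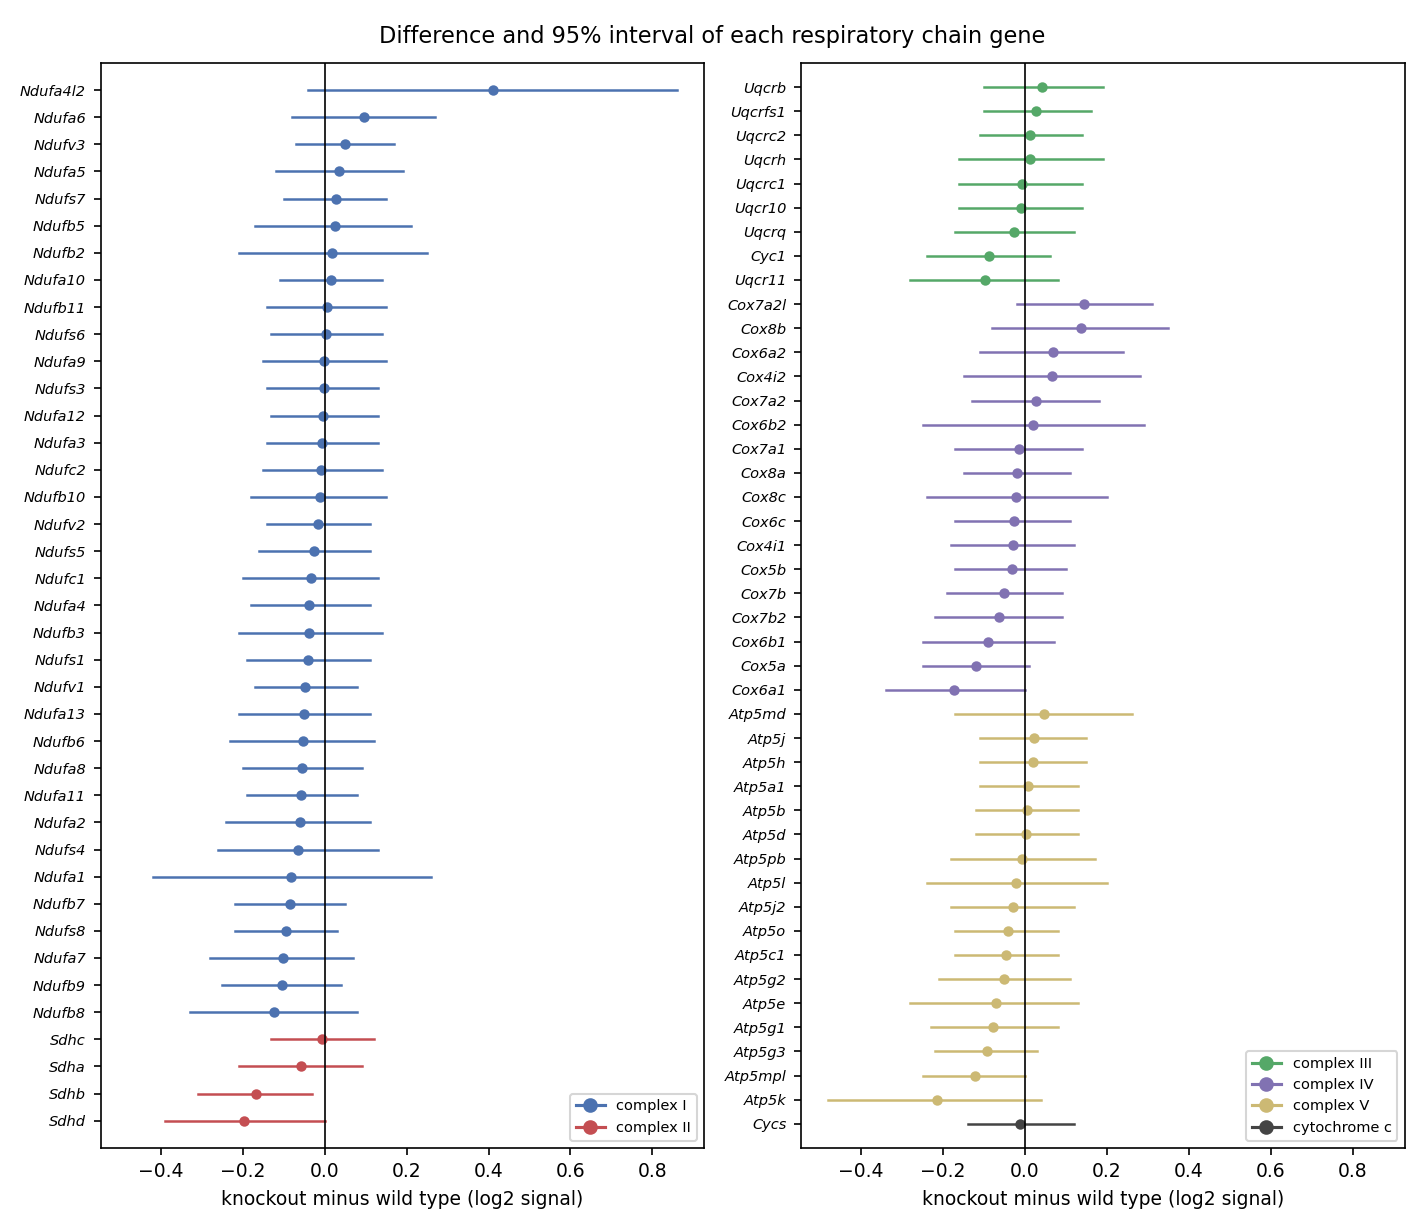
Knockout minus wild type difference in log2 signal (points) with its 95% interval from limma (lines) for the 83 genes, coloured by complex and sorted within it. Most points lie between -0.1 and 0.1, 57 lie below 0, and Ndufa4l2 at 0.41 has the widest interval.

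At the unadjusted level, limma gave 3 genes with a lower signal in the knockout at p under 0.05, which is 3.61% of the set against 1.74% of all tested clusters, and 0 with a higher signal against 1.69%. The 3 were Sdhb and Sdhd of complex II and Cox6a1 of complex IV. With the replicate block 5 were lower, with Atp5k and Atp5mpl added (6.02% against 4.36%), and 2 were higher, Cox7a2l and Ndufa4l2 (2.41% against 4.46%). All knockout arrays lay below all wild-type arrays in 6 genes, Sdhb, Cox5a, Cox6a1, Atp5g3, Atp5mpl and Ndufs8 (7.23% against 4.35%), and above them in 1, Ndufv3 (1.2% against 4.08%). Within replicate numbers, the knockout array was the lower one in 3 of 3 pairs for 19 genes (22.9% against 15.9%) and the higher one in 3 of 3 for 6 genes (7.23% against 16.5%). The count of 3 lower genes was 0 without knockout replicate 1, 0 without knockout replicate 3, 1 without any 1 of the wild-type arrays and 5 without knockout replicate 2. It was 1 with the unnamed clusters added to the fit, 5 after cyclic loess and 6 with a variance trend. Without replicate 2 of both groups, 4 genes were lower and 0 higher at that level, 62 of 83 lay below 0 and the median difference was -0.043.

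The share of genes below 0 rested largely on knockout replicate 1. This array was the lowest of the 6 in 43 of the 83 genes (51.8%), against 19.8% of all tested clusters and 27.3% of those with a mean signal of 10 or more. The median deviation of the 83 genes from their own 6-array mean was -0.065 on knockout replicate 1, 0.023 on replicate 2 and -0.0049 on replicate 3, against -0.00031, 0.0086 and 0.036 on the wild-type arrays. The medians of knockout replicates 1 and 3 thus lay below all wild-type medians, and that of knockout replicate 2 lay within the wild-type range. Over the clusters with a mean signal of 10 or more, the median deviation was -0.031 on knockout replicate 1 and -0.023 on wild-type replicate 1. Without knockout replicate 1, 40 of 83 genes lay below 0 and the median difference was 0.00058. Without both replicate 1 arrays the count was 42 and the median -0.0034. Lens markers averaged 0.093 above their 6-array means on that array, and endothelial and mural markers 0.14. The part of these markers in the values of that array was not tested.

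**Figure D2:**
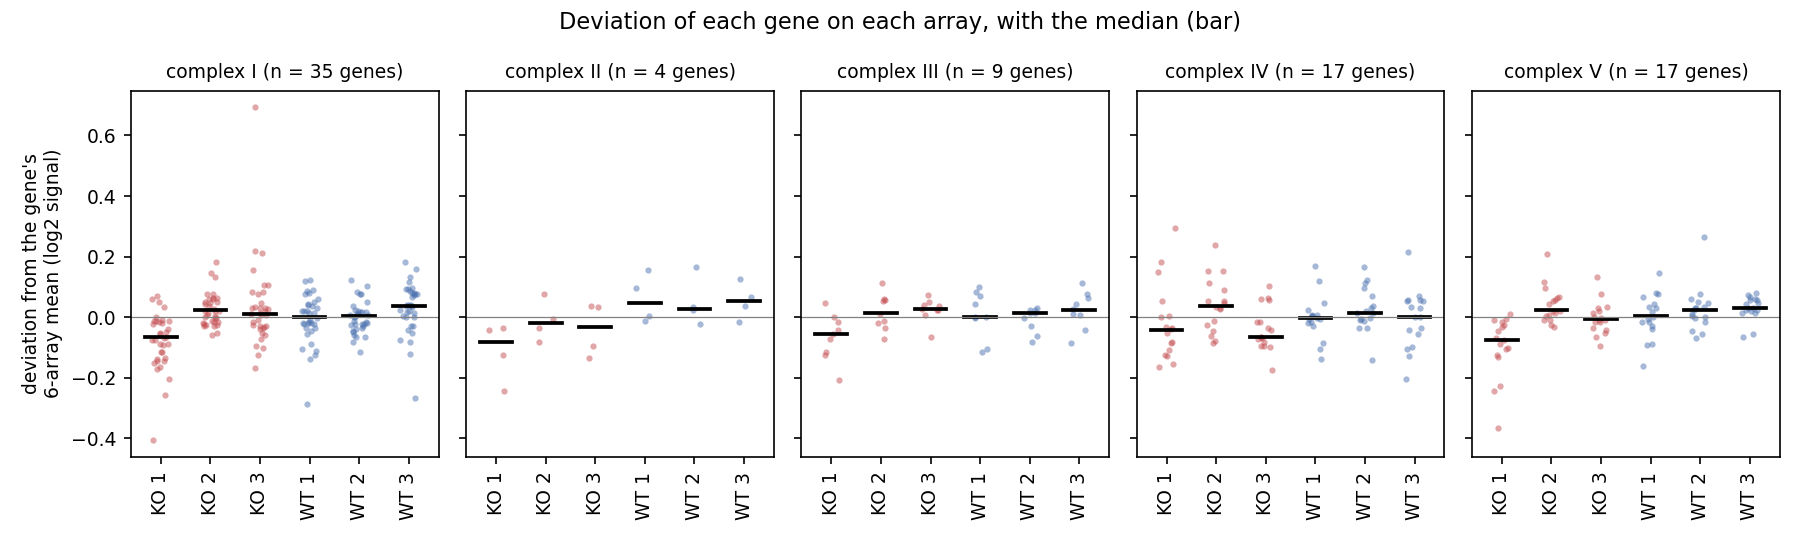
Deviation of each gene from its own mean over the 6 arrays (log2 signal, 1 point per gene) on each knockout (KO, red) and wild-type (WT, blue) array, by complex, with the median as a black bar. Knockout replicate 1 has the lowest median in complexes I, II, III and V, at -0.067, -0.083, -0.055 and -0.076, and in complex II all 3 knockout medians lie below all 3 wild-type medians.

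Complex II, succinate dehydrogenase, had the lowest median difference of the 5 complexes, at -0.11, with 4 of 4 genes below 0. Complex I had a median of -0.026 with 25 of 35 genes below 0, complex III -0.0081 with 5 of 9, complex IV -0.022 with 11 of 17 and complex V -0.028 with 11 of 17. The differences between complexes were not tested, and complex II rests on 4 genes. Its median deviation was -0.083, -0.02 and -0.033 on the knockout arrays and 0.047, 0.026 and 0.053 on the wild-type arrays, so the groups did not overlap. Leaving out any 1 array or any replicate number gave complex II medians from -0.14 to -0.089. The same omissions took the medians of the other 4 complexes to both sides of 0. Complex II drew notice as the lowest of the 5 on these same arrays. Its lack of overlap and its stable sign are therefore no separate support.

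Complex II is the enzyme shared by the citrate cycle and the respiratory chain. Sdhb encodes its iron-sulfur subunit, which carries electrons from the flavin towards ubiquinone. It read 10.81, 10.90 and 10.84 in the knockout (mean 10.85 ± 0.045, SD, n = 3) and 11.09, 10.97 and 11.00 in the wild type (11.02 ± 0.062, SD, n = 3). Every knockout array lay below every wild-type array. The difference was -0.17 (SE 0.061, 95% interval -0.31 to -0.03), or 0.89 of the wild-type signal (limma, unadjusted p = 0.022, adjusted p = 0.9995). Sdhd, which encodes one of the membrane anchor subunits that bind ubiquinone, read 10.47, 10.79 and 10.58 in the knockout and 10.81, 10.88 and 10.75 in the wild type. Knockout replicate 2 lay above wild-type replicate 3, so the groups overlapped, but within each number the knockout was lower, with differences of -0.33, -0.09 and -0.17 for replicates 1, 2 and 3. Its difference was -0.20 (SE 0.086; limma, unadjusted p = 0.0481, adjusted p = 0.9995), and it was -0.13 without knockout replicate 1.

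The other subunits of complex II lay closer to the wild type. Sdha, the flavoprotein subunit that oxidises succinate, read 11.66, 11.62 and 11.74 in the knockout and 11.69, 11.68 and 11.83 in the wild type, a difference of -0.06 (SE 0.067, 95% interval -0.21 to 0.09). The knockout array was lower within each replicate number, while the groups as such overlapped. Sdhc, the second membrane anchor, read 11.64, 11.67 and 11.71 against 11.68, 11.70 and 11.66, a difference of -0.01 (SE 0.054, 95% interval -0.13 to 0.12). The 95% intervals of the 4 subunits overlap one another.

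Complex I, NADH dehydrogenase, was the largest group and showed no gene at an unadjusted p under 0.05 without the block. Array values are given for 5 core subunits, which carry the flavin or iron-sulfur centres. Ndufv1, the NADH-oxidising flavoprotein, read 11.11, 11.15 and 11.20 in the knockout and 11.20, 11.19 and 11.22 in the wild type (difference -0.05, SE 0.056). Ndufv2, its iron-sulfur partner, read 11.72, 11.78 and 11.75 against 11.78, 11.76 and 11.76 (-0.02, SE 0.054). In both genes the arrays of the groups overlapped. Ndufs1, the iron-sulfur subunit of the NADH-oxidising arm, read 9.74, 9.90 and 9.87 against 9.82, 9.93 and 9.87 (-0.04, SE 0.066). Ndufs7, an iron-sulfur subunit near the ubiquinone site, read 13.16, 13.13 and 13.08 against 13.09, 13.11 and 13.08 (0.03, SE 0.055). Ndufs8, which holds the neighbouring iron-sulfur centres, read 11.05, 11.02 and 11.00 against 11.16, 11.09 and 11.11 (-0.10, SE 0.056). Only for Ndufs8 among these 5 did all knockout arrays lie below all wild-type arrays, and its 95% interval of -0.22 to 0.03 includes 0.

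Most of the other complex I genes are accessory subunits, which surround the core and are needed for its assembly and stability. Apart from Ndufa4l2 their differences ranged from -0.12 for Ndufb8 to 0.10 for Ndufa6. Ndufb8, a membrane arm subunit, read 9.91, 10.26 and 9.99 in the knockout and 10.13, 10.19 and 10.21 in the wild type, so its knockout arrays lay on both sides of the wild type. Ndufa6, a subunit of the hydrophilic arm, read 9.80, 9.82 and 9.97 against 9.71, 9.70 and 9.89, higher within each replicate number (SE 0.076). Ndufv3, a small subunit of the NADH-oxidising arm, was the 1 gene of the set with every knockout array above every wild-type array, at 10.18, 10.24 and 10.19 against 10.17, 10.15 and 10.15. Its difference was 0.05 (SE 0.054, 95% interval -0.07 to 0.17), so the arrays were separate by a small margin only. Ndufa1, which lies on the X chromosome, varied with the replicate number more than with genotype, at 8.40, 8.87 and 9.02 in the knockout and 8.67, 8.89 and 8.99 in the wild type. Its difference was -0.08 (SE 0.15), and it was 0.098 without knockout replicate 1. The other X-linked genes of the set, Ndufb11 and Cox7b, differed by 0.01 (SE 0.062) and -0.05 (SE 0.063). Ndufb11 showed no rise with the replicate number. Ndufb2 on chromosome 6 did, at 8.31, 8.46 and 8.70 in the knockout and 8.37, 8.49 and 8.56 in the wild type.

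Ndufa4l2 had the largest difference of the 83 genes. It is a paralogue of Ndufa4 known as a target of hypoxia-inducible factor that lowers complex I activity, and it is also a marker of pericytes. It read 10.20, 10.64 and 11.15 in the knockout (10.66 ± 0.47, SD, n = 3) and 10.17, 10.39 and 10.19 in the wild type (10.25 ± 0.12, SD, n = 3). Knockout replicate 3 lay above all other arrays, and knockout replicate 1 lay among the wild-type arrays. The difference was 0.41 (SE 0.20), or 1.33-fold, with an unadjusted p of 0.0682 without the replicate block and 0.0384 with it (limma, adjusted p = 0.9995 and 0.545). Within replicates 1, 2 and 3 the knockout was higher by 0.03, 0.25 and 0.95. Without knockout replicate 3 the difference was 0.17. Ndufa4 itself, long listed with complex I and now known as a subunit of complex IV, read 9.97, 10.03 and 10.08 against 9.99, 10.07 and 10.14, a difference of -0.04 (SE 0.065).

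By their means, marker lists shared the high value of Ndufa4l2 on knockout replicate 3 and not its order on the other knockout arrays. The 22 measured genes of a hypoxia and glycolysis list averaged -0.025, -0.065 and 0.22 around their 6-array means on knockout replicates 1, 2 and 3 and -0.051, -0.092 and 0.0092 on the wild-type arrays, and 17 of 22 lay above 0. Knockout replicate 3 was the highest array for that list as for Ndufa4l2. Endothelial and mural markers lay above 0 in 15 of 19 genes, with array means of 0.14, -0.075 and 0.18 in the knockout and -0.019, -0.11 and -0.12 in the wild type, and 4 of the 19 lay at or above the median signal. Lens markers lay above 0 in 15 of 19 genes, with means of 0.093, -0.058 and 0.11 against 0.026, -0.11 and -0.066, and 3 of the 19 lay at or above the median signal. The retinal markers also lay above 0 in 12 of 16 genes. Their median difference was 0.015, against 0.081 for the hypoxia, 0.1 for the endothelial and mural and 0.037 for the lens list. At an unadjusted p under 0.05 in limma stood the endothelial genes Cdh5 (0.54, SE 0.14), Emcn (0.50, SE 0.14) and Flt1 (0.35, SE 0.14), the pericyte gene Rgs5 (0.50, SE 0.11) and the lens crystallin gene Cryaa (0.53, SE 0.22). With the replicate block 8 of 19 endothelial and mural, 4 of 19 lens and 4 of 22 hypoxia genes were higher at that level, and 0 were lower. Of all tested clusters 4.46% were higher at that level with the block and 1.69% without it, and 49.3% had a difference below 0. The part of these genes in the Ndufa4l2 difference was not tested.

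**Figure D3:**
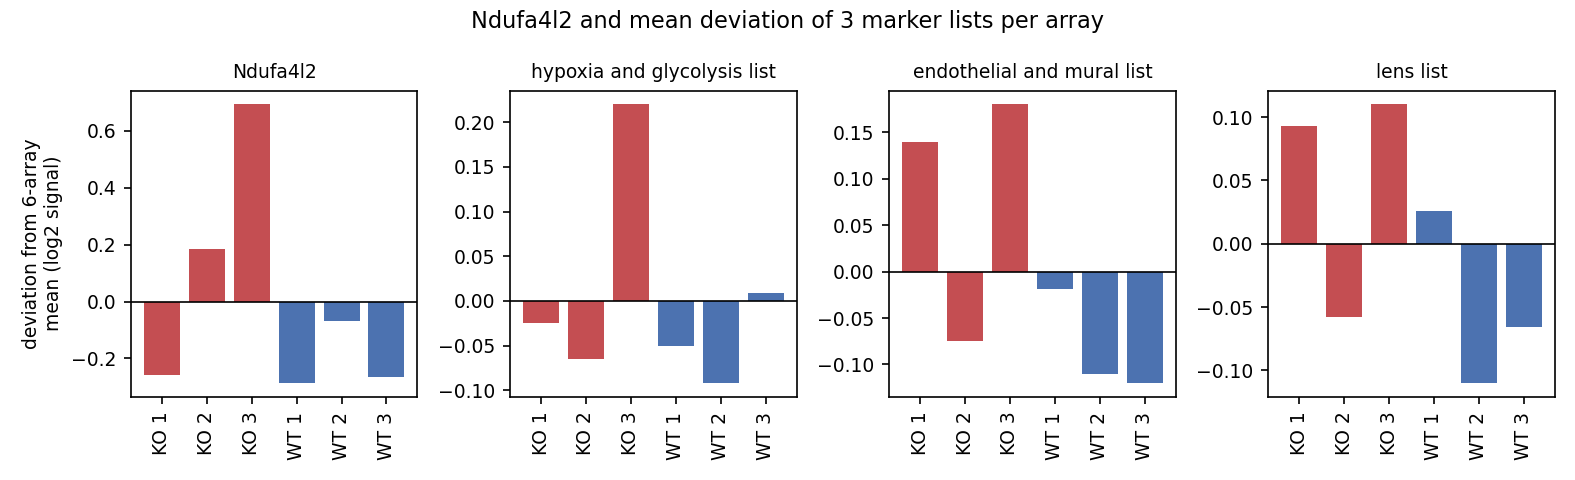
Deviation from the 6-array mean (log2 signal) of Ndufa4l2 and the mean deviation of 3 marker lists on each knockout (KO, red) and wild-type (WT, blue) array; each panel has its own vertical scale and bars start at 0. Knockout replicate 3 is the highest array in all 4 panels, while knockout replicate 1 is high in the endothelial and lens panels and low for Ndufa4l2. By list median instead of mean, knockout replicate 3 is the highest array for the hypoxia list only.

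Complex III, the cytochrome bc1 complex, had the median closest to 0 and no gene with an unadjusted p under 0.05 in either limma fit. Uqcrc1, a core protein of the matrix side, read 11.99, 11.87 and 11.95 in the knockout and 12.01, 11.86 and 11.97 in the wild type (difference -0.01, SE 0.066). Uqcrfs1, the Rieske iron-sulfur protein, read 9.55, 9.65 and 9.62 against 9.59, 9.59 and 9.55 (0.03, SE 0.057). Cyc1, the cytochrome c1 subunit that hands electrons to cytochrome c, read 11.44, 11.62 and 11.50 against 11.61, 11.58 and 11.64 (-0.09, SE 0.065, 95% interval -0.24 to 0.06). In each of these genes the groups overlapped. Across the 9 genes the differences ran from -0.10 for Uqcr11 to 0.04 for Uqcrb, and Uqcr11, a small accessory subunit, was lower in the knockout within each replicate number. Cycs, the electron carrier between complexes III and IV, read 12.69, 12.66 and 12.61 against 12.63, 12.64 and 12.72, a difference of -0.01 (SE 0.059) with overlapping groups. Its 2 further clusters gave -0.03 and -0.28. The mean signals of its 3 clusters ranged from 6.79 to 12.66, and 0 of them had an unadjusted p under 0.05 in limma.

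In complex IV, cytochrome c oxidase, all nuclear subunits surround a core that is encoded in mitochondrial DNA. Cox6a1, the ubiquitous form of a regulatory subunit, read 11.13, 11.28 and 11.21 in the knockout (11.21 ± 0.074, SD, n = 3) and 11.30, 11.33 and 11.51 in the wild type (11.38 ± 0.11, SD, n = 3). All knockout arrays lay below all wild-type arrays, by a gap smaller than the spread within either group. The difference was -0.17 (SE 0.074), or 0.887 of the wild-type signal (limma, unadjusted p = 0.0459, adjusted p = 0.9995), and it was -0.11 without wild-type replicate 3. Cox5a, an early-assembling subunit on the matrix side, read 10.86, 10.88 and 10.90 against 11.06, 10.94 and 11.01, again without overlap (-0.12, SE 0.058; limma, unadjusted p = 0.0692, adjusted p = 0.9995). Cox5a lies on chromosome 9, as does Ptpn9, with 11 named genes from one to the other. Of the 50 named genes nearest to Ptpn9 33 lay below 0 with a median of -0.022. Of all tested clusters 49.3% lay below 0, and of the 83 genes of the set 57 did, also with a median of -0.022. The part of the position near Ptpn9 in the Cox5a difference was not tested. The other 4 members on chromosome 9 are Sdhd, Atp5l, Cox7a2 and Uqcrc1, none of them among those 50 genes.

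Cox4i1, the main form of subunit IV, read 10.98, 11.13 and 11.16 in the knockout and 11.10, 11.09 and 11.16 in the wild type (-0.03, SE 0.066). Cox5b, the zinc-binding subunit, read 12.25, 12.39 and 12.32 against 12.34, 12.35 and 12.37 (-0.03, SE 0.059). Both genes overlapped between groups. Cox7a2l encodes a protein known to join complexes III and IV in supercomplexes. It read 9.11, 9.30 and 9.25 in the knockout and 9.01, 9.17 and 9.05 in the wild type, higher within each replicate number by 0.10, 0.14 and 0.20 but with wild-type replicate 2 above knockout replicate 1. The difference was 0.14 (SE 0.073), with an unadjusted p of 0.0809 without the block and 0.0208 with it (limma, adjusted p = 0.9995 and 0.528). The second cluster of Cox7a2l gave 0.12. Its paralogue Cox7a2, the ubiquitous form of subunit VIIa, differed by 0.03 (SE 0.068), with values of 10.74, 10.94 and 10.91 against 10.82, 10.84 and 10.85.

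**Figure D4:**
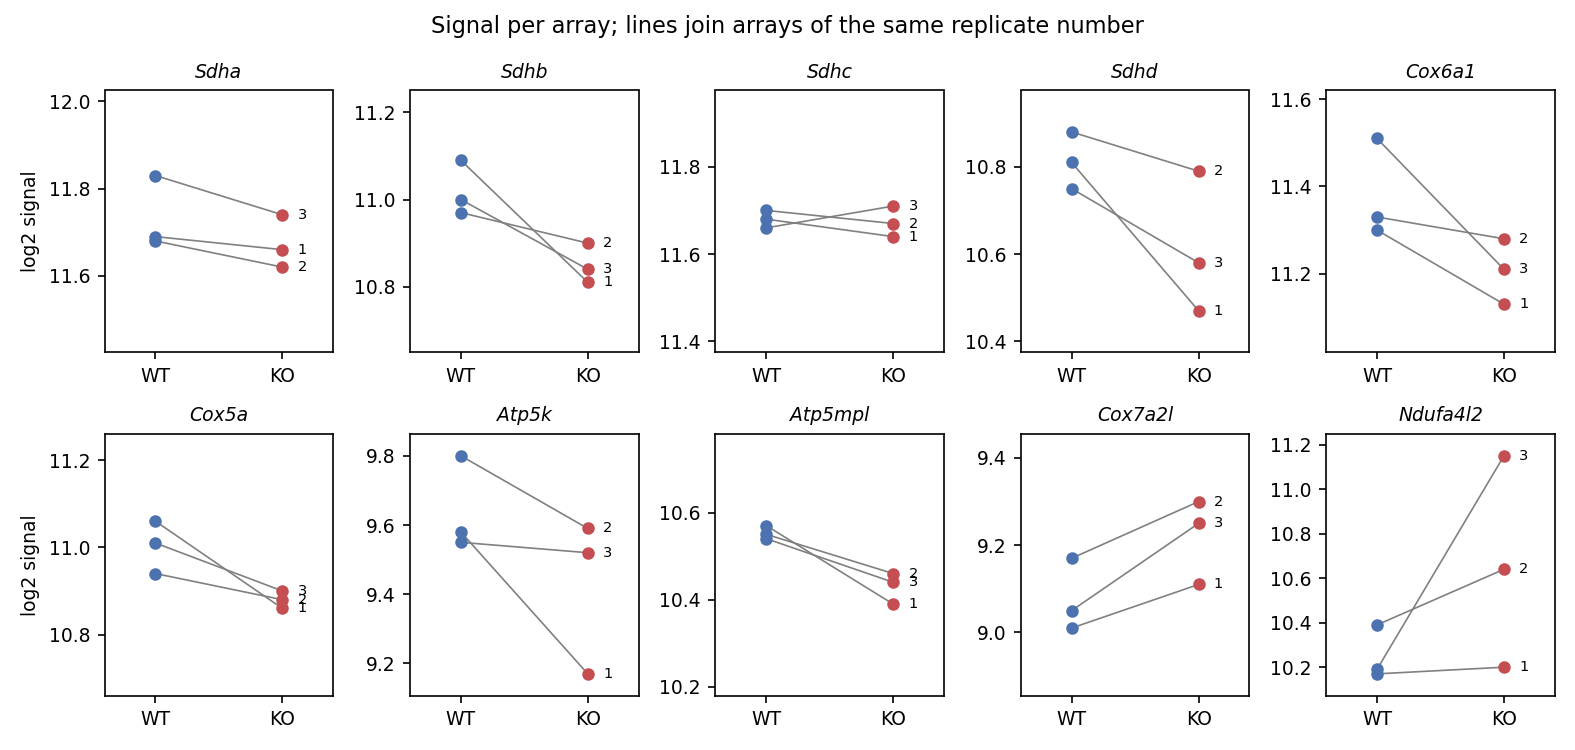
Log2 signal on each array for 10 genes, wild type (WT, blue) on the left and knockout (KO, red) on the right, with lines joining arrays of the same replicate number; panels differ in their vertical range. Lines fall in every pair for Sdha, Sdhb, Sdhd, Cox6a1, Cox5a, Atp5k and Atp5mpl, rise in every pair for Cox7a2l and Ndufa4l2, and cross for Sdhc.

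Several subunits of complex IV have a second isoform of restricted expression, and none of these had an unadjusted p under 0.05 in limma. Of the forms known from heart and skeletal muscle, Cox6a2 read 8.21, 7.98 and 7.99 in the knockout and 8.02, 8.04 and 7.92 in the wild type (0.07, SE 0.078). Cox7a1 read 7.38, 7.53 and 7.32 against 7.42, 7.38 and 7.47 (-0.02, SE 0.070), and Cox8b read 7.19, 6.87 and 6.83 against 6.79, 6.86 and 6.84 (0.14, SE 0.094). For Cox6a2 and Cox8b the highest value was that of knockout replicate 1, and without that array the Cox8b difference was 0.02. The 12 striated muscle markers averaged 0.041 on that array and 0.087 on wild-type replicate 1, against -0.037 to -0.026 on the other 4 arrays. Of the forms known from testis, Cox6b2 (0.02, SE 0.12), Cox7b2 (-0.06, SE 0.067) and Cox8c (-0.02, SE 0.096) each overlapped between groups. These 6 genes and Ndufb2 of complex I were the 7 members with a signal under the median of tested clusters, where a difference in transcript is least readable on an array. Cox4i2, the oxygen-responsive form of subunit IV, read 10.92, 11.20 and 11.11 against 10.96, 11.17 and 10.92 (0.06, SE 0.093). The ubiquitous partners Cox6b1, Cox7b and Cox8a differed by -0.09 (SE 0.069), -0.05 (SE 0.063) and -0.02 (SE 0.057).

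Complex V joins a catalytic head to a proton-driven rotor in the membrane. Of the head subunits, the alpha, beta and gamma genes had knockout and wild-type means within 0.05 of each other. Atp5a1, the alpha subunit, read 12.40, 12.43 and 12.43 in the knockout and 12.40, 12.40 and 12.43 in the wild type (difference 0.01, SE 0.053, 95% interval -0.11 to 0.13). Atp5b, the catalytic beta subunit, read 13.45, 13.43 and 13.44 against 13.40, 13.45 and 13.46 (95% interval -0.12 to 0.13). Atp5c1, the gamma subunit that turns within the head, read 12.09, 12.13 and 12.08 against 12.14, 12.12 and 12.18 (-0.05, SE 0.055). The groups overlapped in all 3 genes. The c subunits of the rotor ring are encoded by Atp5g1, Atp5g2 and Atp5g3, whose mature proteins are the same. Atp5g1 differed by -0.08 (SE 0.069), Atp5g2 by -0.05 (SE 0.072) and Atp5g3 by -0.09 (SE 0.054). For Atp5g3 the arrays did not overlap, at 11.99, 12.04 and 12.03 against 12.10, 12.10 and 12.13.

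The small membrane subunits of ATP synthase held the largest negative difference of the set, by the 1 cluster used per gene. Atp5k, subunit e, which takes part in the pairing of ATP synthases along the cristae, read 9.17, 9.59 and 9.52 in the knockout and 9.58, 9.80 and 9.55 in the wild type. Knockout replicate 1 lay far below the other arrays, and the remaining ones overlapped. The difference was -0.22 (SE 0.11; limma, unadjusted p = 0.0936, or 0.0242 with the replicate block), and without knockout replicate 1 it was -0.088. Atp5mpl, a small proteolipid of the membrane part, read 10.39, 10.46 and 10.44 against 10.57, 10.55 and 10.54, with every knockout array below every wild-type array. Its difference was -0.12 (SE 0.055; limma, unadjusted p = 0.0547, or 0.0392 with the replicate block), and it lay between -0.14 and -0.10 with any 1 array left out. Atp5l, subunit g, which pairs with subunit e, read 9.32, 9.61 and 9.68 against 9.46, 9.60 and 9.62 (-0.02, SE 0.096). Its 5 further clusters gave -0.08 to -0.01. Atp5md, another small membrane subunit, differed by 0.05 (SE 0.096), and Atp5e, the epsilon subunit of the central stalk, by -0.07 (SE 0.090).

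Promoter sequence was set beside these values, since nuclear respiratory factor 1 (NRF1), ETS-family factors such as GABP, and YY1 are known to act on many respiratory chain promoters. RefSeq windows of 300 bases, 250 before and 50 after the transcription start (GRCm38.p6), were found for 67 of the 83 genes, with 72 windows in all. Motifs were searched on both strands as GCGCANGCG for NRF1, CCGGAAG for ETS factors and AAGATGGC for YY1. NRF1 matches stood in 29.2% of the windows of the set and in 8.58% of all 21263 windows, ETS matches in 23.6% and 11.6%, and YY1 matches in 13.9% and 3.05%. Any of the 3 was present in 55.6% against 20.5%. The 250 bases before the start are given for the genes at an unadjusted p under 0.05 in either fit that have a window, with matches in capitals:
Sdhb, chr4:140961021-140961270, plus strand: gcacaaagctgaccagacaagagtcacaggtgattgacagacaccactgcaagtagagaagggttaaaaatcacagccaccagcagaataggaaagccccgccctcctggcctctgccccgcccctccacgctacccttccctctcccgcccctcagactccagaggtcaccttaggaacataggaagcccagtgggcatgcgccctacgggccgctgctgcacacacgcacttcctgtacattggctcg
Sdhd, chr9:50603850-50604099, minus strand: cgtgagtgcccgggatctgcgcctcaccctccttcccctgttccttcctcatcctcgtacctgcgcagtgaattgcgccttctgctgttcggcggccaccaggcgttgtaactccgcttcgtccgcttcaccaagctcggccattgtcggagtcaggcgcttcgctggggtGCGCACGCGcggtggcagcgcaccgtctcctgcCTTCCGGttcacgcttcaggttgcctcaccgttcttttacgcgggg
Cox6a1, chr5:115348959-115349208, minus strand: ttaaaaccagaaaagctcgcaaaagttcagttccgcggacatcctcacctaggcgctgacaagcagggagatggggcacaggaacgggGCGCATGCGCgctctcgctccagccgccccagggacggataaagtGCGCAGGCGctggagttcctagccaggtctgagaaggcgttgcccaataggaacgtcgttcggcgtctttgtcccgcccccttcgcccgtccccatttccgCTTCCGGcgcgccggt
Atp5k, chr5:108434400-108434649, minus strand: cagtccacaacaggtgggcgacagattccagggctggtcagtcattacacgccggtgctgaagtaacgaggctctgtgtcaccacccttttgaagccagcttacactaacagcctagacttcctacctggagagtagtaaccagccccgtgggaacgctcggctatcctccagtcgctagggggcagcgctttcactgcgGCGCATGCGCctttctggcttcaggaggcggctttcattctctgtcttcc
Cox7a2l, chr17:83514334-83514583, minus strand: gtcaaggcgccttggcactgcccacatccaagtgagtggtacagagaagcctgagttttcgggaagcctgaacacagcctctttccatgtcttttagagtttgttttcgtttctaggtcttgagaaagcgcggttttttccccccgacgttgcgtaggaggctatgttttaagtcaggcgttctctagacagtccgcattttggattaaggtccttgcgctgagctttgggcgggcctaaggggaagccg

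Upstream of Sdhd, Cox6a1 and Atp5k the capitals hold NRF1 matches, and those of Sdhd and Cox6a1 an ETS match nearer the start. The NRF1 letters read nearly the same on both strands, so 1 stretch of Atp5k and 1 of Cox6a1 match on both and were marked once; no NRF1 match overlaps an ETS match. The ETS matches of Sdhb and Atp5k begin 7 and 13 bases after the start, outside the printed stretch, and the Cox7a2l window holds none of the 3 motifs. By complex, any of the 3 motifs was found in 17 of 31 genes with a window in complex I, 3 of 3 in complex II, 3 of 5 in complex III, 3 of 12 in complex IV and 12 of 15 in complex V. The median difference was -0.045 for the 20 genes with an NRF1 match and -0.015 for the 47 without, against -0.0037 and -0.0012 over all genes with a window. With an ETS match it was -0.071 in 17 genes and without -0.014 in 50, against -0.0069 and -0.00069. With a YY1 match it was -0.0071 in 10 genes and without -0.026 in 57, against 0.0026 and -0.0018. These are descriptions of letters and of medians with no test, and a match is not a binding site.

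Genes that build and feed the respiratory chain were read from lists of assembly factors, substrates and carriers, and none passed an adjusted p of 0.05 in limma. Complex I assembly genes lay below 0 in 16 of 16 measured, with a median of -0.04, where 49.3% of all tested clusters lay below 0. The median deviation of these genes was -0.1, -0.053 and 0.039 on the knockout arrays. It was 0.032, -0.018 and 0.082 on the wild-type arrays, so the groups overlapped. The median difference was -0.016 without wild-type replicate 3 and -0.093 without knockout replicate 3. Of these genes 2 had an unadjusted p under 0.05 and a lower signal in the knockout, where all tested clusters gave 1.74%. Ndufaf3 read 10.55, 10.62 and 10.71 in the knockout and 10.83, 10.79 and 10.80 in the wild type (-0.18, SE 0.062; limma, unadjusted p = 0.0172). Ndufaf4, which works with Ndufaf3 in early assembly, read 8.99, 8.99 and 9.01 against 9.19, 9.12 and 9.15 (-0.16, SE 0.055; limma, unadjusted p = 0.0182). In both genes all knockout arrays lay below all wild-type arrays. Of the complex III assembly genes 5 of 6 lay below 0 (median -0.064), and Uqcc2, an assembly factor for cytochrome b, read 10.23, 10.28 and 10.25 against 10.48, 10.38 and 10.58 (-0.23, SE 0.066; limma, unadjusted p = 0.00742). Complex II assembly genes lay below 0 in 4 of 4 (median -0.058), complex IV assembly genes in 12 of 19 (-0.029) and complex V assembly genes in 3 of 5 (-0.044), with 0 at an unadjusted p under 0.05 in the limma fit without the block.

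Where 49.3% of all tested clusters lay below 0, citrate cycle and pyruvate dehydrogenase genes did in 14 of 17 (median -0.033) and coenzyme Q synthesis genes in 10 of 12 (-0.034). Among the latter Coq8a, an atypical kinase of the pathway, lay on the other side, at 9.06, 9.33 and 9.11 in the knockout against 8.87, 9.15 and 8.86 (0.21, SE 0.10; limma, unadjusted p = 0.0699, or 0.00328 with the replicate block). Mitochondrial carriers and porins lay below 0 in 7 of 10 (median -0.051), with 1 at an unadjusted p under 0.05, the dicarboxylate carrier Slc25a10, which read 9.89, 9.62 and 9.81 against 10.03, 9.86 and 10.02 (-0.20, SE 0.083; limma, unadjusted p = 0.0448). The arrays of Slc25a10 overlapped between groups, while the knockout was lower within each replicate number. Mitochondrial ribosomal protein genes, which serve the subunits encoded in mitochondrial DNA, lay below 0 in 56 of 77 (median -0.025, or 0.004 without knockout replicate 1, where the list averaged -0.088), and regulators of mitochondrial gene expression in 13 of 21 (-0.017), with 0 at an unadjusted p under 0.05 in the unblocked limma fit. The medians of these lists ran from -0.051 to -0.017, where those of complexes I, IV and V were -0.026, -0.022 and -0.028. The differences among lists were not tested.

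With the replicate block limma gave further genes of these lists an unadjusted p under 0.05, where all tested clusters gave 4.36% lower and 4.46% higher. Of the 21 regulators 3 were lower, the nuclear receptor gene Esrrg, the mitochondrial RNA methyltransferase gene Tfb1m and the accessory DNA polymerase gene Polg2, each with a difference of -0.12 (SE 0.10, 0.077 and 0.071 without the block). Of the 10 carriers and porins 3 were lower, Slc25a10, the citrate carrier gene Slc25a1 (-0.15, SE 0.070) and the oxoglutarate carrier gene Slc25a11 (-0.12, SE 0.060). Of the 77 mitochondrial ribosomal protein genes 3 were lower, Mrpl51 (-0.14, SE 0.082), Mrps28 (-0.14, SE 0.072) and Mrps26 (-0.23, SE 0.10), and 1 was higher, Mrpl45 (0.12, SE 0.075). Of the 6 complex III assembly genes 2 were lower, Uqcc2 and Bcs1l, which inserts the Rieske protein (-0.16, SE 0.11), and of the 19 complex IV assembly genes 1, Higd1a (-0.16, SE 0.12). Complex I assembly again had 2 lower, Ndufaf3 and Ndufaf4, coenzyme Q synthesis had 1 higher, Coq8a, and complex II assembly, complex V assembly and the citrate cycle list had 0.

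**Figure D5:**
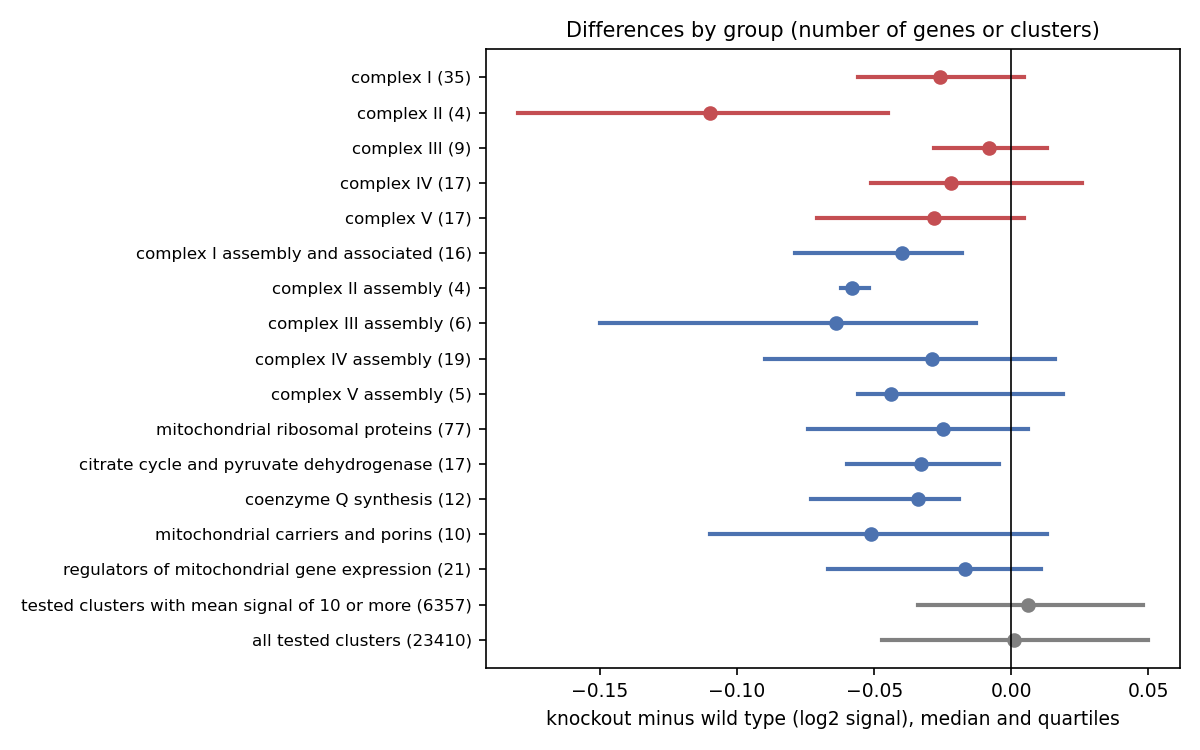
Median (point) and quartiles (line) of the knockout minus wild type differences in log2 signal for the 5 complexes (red), the other mitochondrial lists (blue) and the tested clusters as a whole (grey), with the number of genes or clusters in brackets. All medians of the mitochondrial groups lie below 0, from -0.11 for complex II to -0.0081 for complex III, against 0.0012 for all tested clusters.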

How the data were processed

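Retinal RNA of 3 knockout and 3 wild-type mice was read on an Affymetrix gene array with 1 sample per array. The authors deposited 1 log2 signal per cluster and array. According to the submitters' processing notes they used Affymetrix Expression Console with RMA, which sets all arrays to 1 distribution and so removes shifts shared by most transcripts, and Transcriptome Analysis Console; versions and scan dates were not stated in the labels used here. The number of arrays limits the precision.

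Of 35557 clusters a platform annotation named 1 gene for 21789, several for 1621 and none for 12147. The 23410 named clusters were fitted with limma 3.58.1 (lmFit, eBayes) in R 4.3.3, knockout minus wild type, two-sided, with Benjamini-Hochberg adjustment over all of them. SE and 95% intervals are the moderated ones. The labels call the samples biological replicates, and p-values measure only the spread between these samples. An exact permutation test of 3 against 3 cannot go below p = 0.1 and was not used. Of the 83 genes, all matched the RefSeq gene table (GRCm38.p6) by Entrez identifier. Of 17 genes with several clusters, Ndufb11 had clusters on both sides of 0.

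Replicate numbers were taken from the sample titles, where their meaning is not explained. Xist and Eif2s3y, as given above, differed by replicate number in both groups, so a block by number also holds that difference. Same-numbered arrays deviated together from their group means (r = 0.476, 0.485 and 0.455 for replicates 1, 2 and 3, each over the limit of 0.1), and a second fit therefore held the number as a block. A code in the titles alternates between the groups and puts each knockout sample ahead of its wild-type partner. The titles do not say what the code means. If it is a running order, the order within a pair and genotype cannot be told apart.

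The members, the gene lists and the rule for named genes were chosen with earlier results of these data known. Array values were given for core subunits, isoform pairs and members at an unadjusted p under 0.05 with or without the block, and other named genes and the promoter motifs were chosen after values were seen. The alternatives were median centring, cyclic loess, a filter at the 25th percentile of signal, all clusters in the fit, a variance trend, array weights, the block, the mean of a gene's clusters, and arrays or replicate numbers left out. The fit was tested on simulated data. Tables and plots were made with pandas 2.3.3 and matplotlib 3.10.9 in Python 3.11.15.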

Additional observations from a re-analysis of the deposited data

How the results depend on the processing

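In limma 0 of 83 genes passed an adjusted p of 0.05 under all 17 alternatives, against 3 lower and 0 higher at an unadjusted p under 0.05. That count of 3 was 5 after cyclic loess, 1 with all clusters in the fit, 6 with a variance trend and 5 with the replicate block, and ranged from 0 to 5 with arrays or replicate numbers left out. The count of 0 higher was 1 after cyclic loess, 1 with a variance trend, 1 with array weights and 2 with the replicate block, and from 0 to 2 in the omissions. Genes below 0 numbered 40 to 62 in the omissions and 52 to 61 otherwise. The causes were not tested. The replicate block leaves each difference as it is, and its further calls at the unadjusted level in the other lists are given above.

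With arrays or replicate numbers left out, medians ranged from -0.14 to -0.089 for complex II, -0.042 to 0.0069 for complex I, -0.019 to 0.019 for complex III, -0.064 to 0.0084 for complex IV and -0.057 to 0.0094 for complex V. For the other lists they ranged from -0.093 to -0.016 for complex I assembly, -0.086 to -0.019 for complex II assembly, -0.10 to -0.038 for complex III assembly, -0.083 to -0.005 for complex IV assembly, -0.085 to 0.0018 for complex V assembly, -0.058 to 0.004 for mitochondrial ribosomal proteins, -0.056 to -0.0082 for regulators, -0.059 to -0.015 for the citrate cycle list, -0.082 to -0.015 for coenzyme Q synthesis and -0.086 to -0.027 for carriers and porins. The difference changed sign and moved by more than its SE for Atp5e (range -0.14 to 0.056), Atp5l (-0.092 to 0.084), Ndufa1 (-0.21 to 0.098), Ndufb2 (-0.087 to 0.11), Cox7a1 (-0.096 to 0.055) and Uqcrq (-0.066 to 0.04). In all, 51 genes changed sign in some omission, the largest of them 0.083 in size, and 13 in the 8 other alternatives, the largest 0.027. Of the 7 genes at an unadjusted p under 0.05 in either fit, 0 changed sign under any alternative. They were picked on the same arrays for a difference large against its SE, so their stable sign is no separate support. Dim clusters, the muscle and testis isoforms among them, limit what can be read.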
